A study of Mus musculus with 28 samples.

Results

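The genes described here encode 10 enzymes that build or break down triglyceride: Gpam, Agpat2, Lpin1, Lpin2, Dgat1, Dgat2, Mogat1, Pnpla2, Pnpla3 and Mgll. They were chosen by symbol among the 36072 gene symbols of the count data, and all 10 were found. RNA was counted in the livers of 14 female mice on a C57BL/6 background, which were 8 weeks old when a Western-type, cholesterol-rich high-fat diet began and which ate it for 12 weeks. The 7 Mif-2-/-Apoe-/- mice lacked Mif-2, the cytokine gene with the symbol Ddt, in all tissues as well as Apoe, whose product clears remnant lipoproteins. The 7 Apoe-/- mice lacked Apoe alone, so both groups were prone to high blood lipids and neither had intact Apoe. Each mouse gave 2 libraries, which were summed. The comparison asked whether loss of Mif-2 changed the transcripts of these enzymes in fatty livers.

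Liver stores fatty acids as triglyceride by adding acyl groups to glycerol 3-phosphate one after another. GPAM on mitochondria adds the first acyl group and AGPAT2 the next, the lipins LPIN1 and LPIN2 remove the phosphate to give diacylglycerol, and DGAT1 or DGAT2 adds the last acyl group. MOGAT1 reaches diacylglycerol by another way, from monoacylglycerol. Lipolysis runs the other way: PNPLA2 (adipose triglyceride lipase) takes the first fatty acid off triglyceride, PNPLA3 is a lipid droplet protein of the same family, and MGLL cleaves the last monoacylglycerol.

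No enzyme of the set differed between the groups at an adjusted p below 0.05. Of the 10 genes, 8 had enough counts to be tested, and 0 of these 8 were called, against 0.217% of all 9684 genes tested. At an unadjusted p below 0.05 the count was 1 of 8, Lpin1, against 12.9% of all genes. Fitted log2 fold changes (Mif-2-/-Apoe-/- over Apoe-/-) were positive for 3 genes and negative for 5, with a median of -0.02, and the median of all genes tested was 0.01. Apart from Lpin1, the 95% intervals of the tested genes lay between -0.55 and 0.77. The 2 genes with too few counts for the test, Mogat1 and Pnpla3, stood on either side. Mogat1, at 0 to 17 counts per mouse, had a lower mean in Mif-2-/-Apoe-/- mice (unadjusted exact permutation p = 0.00758). In a fit of all genes with no filter on low counts, its edgeR adjusted p was 0.223. Pnpla3 had a higher mean that did not pass an exact permutation test. The summed level of the 10 genes was 850 ± 51.6 CPM (counts scaled to library size) in Mif-2-/-Apoe-/- mice and 847 ± 78.2 CPM in Apoe-/- mice (SD, n = 7 each).

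A few facts of the libraries touch these values. Total counts per mouse ran from 1336787 to 2715022. Ddt, the targeted gene, had 5 to 12 counts in every Mif-2-/-Apoe-/- mouse and 84 to 316 in every Apoe-/- mouse (log2 fold change -4.50, SE 0.23; edgeR adjusted p = 3.12e-11). The hepatocyte transcripts Alb and Ttr were abundant in every mouse, with at least 17717 and 1974 counts. Of the 14 mice 2 stood apart, both Mif-2-/-Apoe-/-. In mouse 3, 8 skeletal muscle genes summed to 7189 CPM, against 15.6 to 44.2 CPM in the other 13 mice, and both of its libraries held them (6064 and 8115 counts). Acta1 alone had 3416 counts there and 4 to 24 in the others. In mouse 2, ribosomal RNA genes took 51.8% of all counts, against 17.7 to 47.4% in the others, and its library scaling factor was 0.71, against 0.88 to 1.18. The ribosomal RNA share averaged 32.4 ± 10.1% in Mif-2-/-Apoe-/- mice and 33.7 ± 8.20% in Apoe-/- mice (two-sided exact permutation p = 0.797, n = 7 each). Without mice 2 and 3 of the Mif-2-/-Apoe-/- group, the number of genes called over the whole table was 376 of 10094 (3.72%) in place of 21, and still 0 of the 8 tested enzymes were called.

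**Figure D1:**
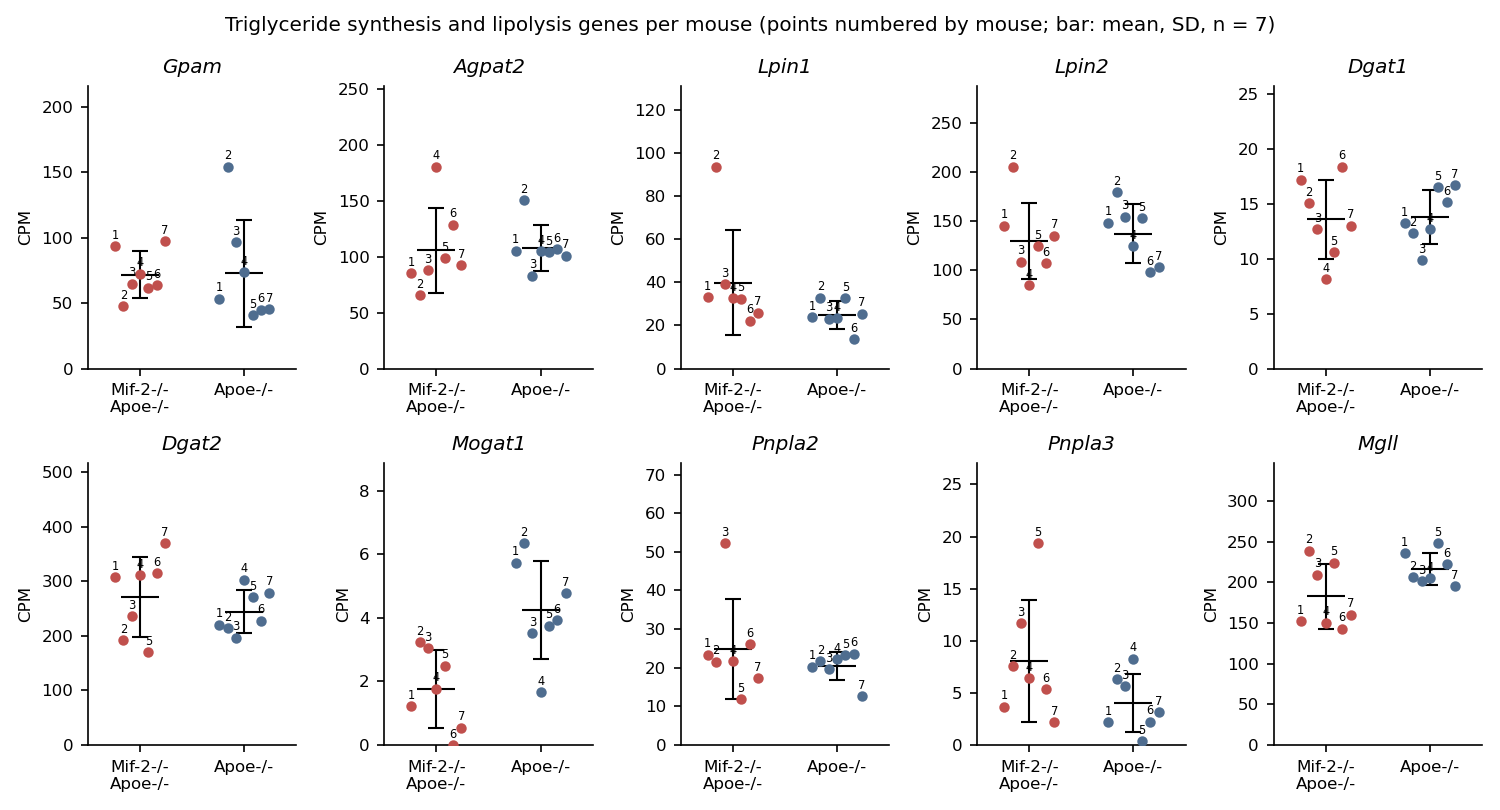
Level of each of the 10 enzyme genes in CPM (y axes, each starting at 0) in the 7 Mif-2-/-Apoe-/- mice (left, red) and the 7 Apoe-/- mice (right, blue). Each point is 1 mouse and carries its number, the long bar is the group mean and the error bar the SD. Mouse 2 stands alone for Lpin1 at 93.7 CPM and mouse 3 for Pnpla2 at 52.2 CPM, and the groups overlap for every gene.

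The promoters of 8 of the 10 genes were at hand from RefSeq (GRCm38.p6), and 2 are shown because Gpam and Hmgcs1, which encodes an early enzyme of cholesterol synthesis, moved together from mouse to mouse, as described further on. Each line holds the 250 bases before the start site, read 5′ to 3′ on the strand of the gene, from chr19:55127239-55127488 (minus strand) for Gpam and from chr13:119690101-119690350 (plus strand) for Hmgcs1. Capitals mark matches, on either strand, to CACNCCAC, a sequence close to the element that SREBP transcription factors bind, and to CCAAT (read as ATTGG on the other strand), the box that NF-Y binds. These letters were looked for after the likeness of both genes had been seen, and Hmgcs1 is printed as the gene most like Gpam. The letters were also looked for in the promoters of Acss2 and Acly, the next in likeness: Acss2 has 1 CCAAT match and no CACNCCAC, and Acly has none of them.
Gpam: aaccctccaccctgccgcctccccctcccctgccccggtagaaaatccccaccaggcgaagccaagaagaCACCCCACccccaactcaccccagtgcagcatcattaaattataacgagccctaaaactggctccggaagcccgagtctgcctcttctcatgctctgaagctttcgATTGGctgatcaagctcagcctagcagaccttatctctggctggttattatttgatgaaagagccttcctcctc
Hmgcs1: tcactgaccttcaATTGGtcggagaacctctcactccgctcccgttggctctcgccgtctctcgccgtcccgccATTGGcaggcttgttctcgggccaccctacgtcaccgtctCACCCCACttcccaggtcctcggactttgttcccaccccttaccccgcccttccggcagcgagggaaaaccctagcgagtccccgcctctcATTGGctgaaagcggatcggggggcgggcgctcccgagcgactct

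The Gpam stretch has 1 match to CACNCCAC, beginning 180 bases before the start site, and 1 CCAAT match at 74 bases. The Hmgcs1 stretch has 1 match to CACNCCAC at 136 bases and 3 CCAAT matches. Of all 32851 mouse promoter stretches of this length, 5.29% hold CACNCCAC and 33.8% hold CCAAT. Among the 8 enzymes with a promoter, CACNCCAC was found for 1 of the 2 Gpam start sites, the one printed, and for 1 of the 3 Lpin2 start sites, and CCAAT for the same Gpam and Lpin2 sites and for Pnpla3. CACGTG, the E-box that ChREBP and clock factors bind, was found 44 bases before a Mgll start site and 9 bases before a Lpin2 start site, and 6.02% of all stretches hold it. The letters were not found in the windows of Agpat2, Lpin1, Mogat1 or Pnpla2.

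Gpam (ENSMUSG00000024978.11, mm10 chromosome 19, 55067268 to 55127238, minus strand) gives the first and committing acylation. Its lowest, median and highest levels were 47.4, 64.9 and 97.5 CPM in Mif-2-/-Apoe-/- mice, against 40.9, 53.3 and 154 CPM in Apoe-/- mice. The groups overlapped fully, and the spread was wider in Apoe-/- mice, where mouse 2 stood far above the rest. Fitted over all mice, Gpam had a log2 fold change of -0.02 (95% interval -0.55 to 0.51, SE 0.26; edgeR adjusted p = 0.980). Apoe-/- mouse 2 held 206 and 207 Gpam counts in its 2 libraries, and the other 6 Apoe-/- mice averaged 59.1 ± 21.7 CPM (SD, n = 6). Without that mouse it was 0.29 (SE 0.21; edgeR adjusted p = 0.516).

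Agpat2 (ENSMUSG00000026922.13, chromosome 2, 26593057 to 26604417, minus strand) carries the next acylation, and its loss causes lipodystrophy in people and mice. Across the group its lowest, median and highest levels were 65.7, 92.6 and 181 CPM in Mif-2-/-Apoe-/- mice, against 83.0, 105 and 151 CPM in Apoe-/- mice. A single mouse in each group lay high, Mif-2-/-Apoe-/- mouse 4 and Apoe-/- mouse 2, and the groups overlapped. Agpat2 had a log2 fold change of -0.03 (95% interval -0.42 to 0.36, SE 0.19; edgeR adjusted p = 0.965). Agpat2 shares its locus with Egfl7 on the opposite strand, which had 24 to 76 counts per mouse against 61 to 508 for Agpat2. Whether strand was used is not given in the sources used here, and without it reads of overlapping genes cannot be told apart.

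Lpin1 (ENSMUSG00000020593.15, chromosome 12, 16535669 to 16610966, minus strand) is the fasting- and glucocorticoid-induced lipin of liver and the main one of muscle and fat. It had the lowest unadjusted p of the tested enzymes. Lpin1 had lowest, median and highest levels of 22.2, 32.7 and 93.7 CPM in Mif-2-/-Apoe-/- mice, against 13.5, 23.8 and 32.8 CPM in Apoe-/- mice. Of the Mif-2-/-Apoe-/- mice, 6 of 7 lay above the Apoe-/- mean and 3 above every Apoe-/- mouse. Its log2 fold change was 0.61 (95% interval 0.08 to 1.15, SE 0.26; unadjusted p = 0.0265, edgeR adjusted p = 0.316).

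The Lpin1 value rested in good part on Mif-2-/-Apoe-/- mouse 2, the mouse with the highest ribosomal RNA share. Its libraries held 34 and 53 Lpin1 counts, or 62.8 and 66.7 CPM when scaled to total counts. With the library scaling factors applied, mouse 2 had 93.7 CPM and the other 6 Mif-2-/-Apoe-/- mice averaged 30.9 ± 5.95 CPM (SD, n = 6). Without mouse 2 the log2 fold change was 0.30 (95% interval -0.08 to 0.68, SE 0.18; unadjusted p = 0.110, edgeR adjusted p = 0.362). Without Apoe-/- mouse 6, the lowest of its group, the unadjusted p was 0.0596, and with libraries scaled to their totals alone the log2 fold change was 0.45 (unadjusted p = 0.0712). Over all 14 mice, centred within groups, Lpin1 and the ribosomal RNA share had a Pearson r of 0.47, which was -0.10 without mouse 2.

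Lpin2 (ENSMUSG00000024052.17, chromosome 17, 71182560 to 71249817, plus strand) is the lipin that is prominent in liver. Lpin2 had lowest, median and highest levels of 84.9, 125 and 206 CPM in Mif-2-/-Apoe-/- mice, against 98.4, 149 and 180 CPM in Apoe-/- mice. The groups overlapped, and mouse 2 was again the highest of the Mif-2-/-Apoe-/- mice. Its log2 fold change was -0.09 (95% interval -0.47 to 0.29, SE 0.18; edgeR adjusted p = 0.870). Both lipins moved together from mouse to mouse (r = 0.70 over 14 mice, centred within groups). As a plain description of both genes, the ratio of Lpin2 to Lpin1 counts within a mouse was 2.20 to 5.21 (median 3.85) in Mif-2-/-Apoe-/- mice, against 4.06 to 7.29 (median 5.48) in Apoe-/- mice. All 7 Mif-2-/-Apoe-/- mice lay below the Apoe-/- median ratio, and the ranges overlapped. This ratio uses the same Lpin1 counts as the comparison above. The ratios of Dgat2 to Dgat1 and of Pnpla2 to Pnpla3 were looked at as well. There, 2 and 3 of the 7 Mif-2-/-Apoe-/- mice lay below the Apoe-/- median.

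Dgat1 (ENSMUSG00000022555.12, chromosome 15, 76502015 to 76511953, minus strand) and Dgat2 (ENSMUSG00000030747.5, chromosome 7, 99153658 to 99182719, minus strand) encode unrelated proteins that both add the last acyl group. DGAT2 works mainly on newly made fatty acids and DGAT1 on fatty acids taken up or recycled. Dgat1 had 8.17, 13.0 and 18.4 CPM (lowest, median, highest) in Mif-2-/-Apoe-/- mice, against 9.85, 13.2 and 16.7 CPM in Apoe-/- mice. These are 14 to 28 counts per Mif-2-/-Apoe-/- mouse and 14 to 44 per Apoe-/- mouse. Dgat1 had a log2 fold change of -0.06 (95% interval -0.46 to 0.35, SE 0.20; edgeR adjusted p = 0.921).

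Dgat2 had 171, 307 and 369 CPM (lowest, median, highest) in Mif-2-/-Apoe-/- mice, against 196, 228 and 303 CPM in Apoe-/- mice. The Mif-2-/-Apoe-/- mice spread to both sides of the Apoe-/- range: 4 of them (mice 1, 4, 6 and 7) lay above every Apoe-/- mouse and 2 (mice 2 and 5) below. Its log2 fold change was 0.15 (95% interval -0.21 to 0.51, SE 0.17; edgeR adjusted p = 0.723). The SD was 73.1 CPM around a mean of 271 in Mif-2-/-Apoe-/- mice and 39.5 CPM around a mean of 244 in Apoe-/- mice; this difference in spread was not tested.

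Mogat1 (ENSMUSG00000012187.13, chromosome 1, 78510991 to 78538173, plus strand) encodes the liver form of monoacylglycerol acyltransferase, whose transcript is low in lean mouse liver and rises with PPAR-gamma activity and fat loading. It had 0 to 6 counts per Mif-2-/-Apoe-/- mouse, 21 in all, against 3 to 17 per Apoe-/- mouse, 61 in all. As CPM, the lowest, median and highest levels were 0, 1.78 and 3.23 CPM in Mif-2-/-Apoe-/- mice, against 1.66, 3.94 and 6.34 CPM in Apoe-/- mice. The count of 0 in Mif-2-/-Apoe-/- mouse 6 allows a level of up to 2.30 CPM (3 counts, counting error only). All 7 Mif-2-/-Apoe-/- mice lay below the Apoe-/- mean and 3 below every Apoe-/- mouse, and the groups overlapped through Apoe-/- mouse 4.

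The means of Mogat1 were 1.76 ± 1.24 CPM in Mif-2-/-Apoe-/- mice and 4.24 ± 1.55 CPM in Apoe-/- mice, a log2 ratio of -1.27 (SD, n = 7 each; two-sided exact permutation p = 0.00758). That p is unadjusted and 1 of 2 such tests, the other being that of Pnpla3. With 1 mouse left out at a time, the log2 ratio was -1.49 to -1.05 and the exact p 0.00117 to 0.0163, and without Mif-2-/-Apoe-/- mice 2 and 3 they were -1.81 and 0.00758. In the first or the duplicate libraries alone, each with part of the counts, the log2 ratio was -1.22 (exact permutation p = 0.0658) and -1.57 (exact permutation p = 0.0752). When all 36072 genes were fitted with no filter on low counts, the edgeR adjusted p of Mogat1 was 0.223, and 0.954% of genes were called in that fit, with none of the 10 enzymes among them.

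Pnpla2 (ENSMUSG00000025509.15, chromosome 7, 141455198 to 141460743, plus strand) is expressed most in fat and also in muscle and liver. Its lowest, median and highest levels were 11.9, 21.7 and 52.2 CPM in Mif-2-/-Apoe-/- mice, against 12.7, 21.6 and 23.6 CPM in Apoe-/- mice. The medians nearly coincided, and the whole difference in means came from 1 mouse. Mif-2-/-Apoe-/- mouse 3, the one with muscle transcripts, held 45 and 58 Pnpla2 counts in its libraries, and the other 6 averaged 20.3 ± 5.01 CPM (SD, n = 6). Fitted over all mice, Pnpla2 had a log2 fold change of 0.28 (95% interval -0.22 to 0.77, SE 0.24; edgeR adjusted p = 0.625), which was -0.04 (95% interval -0.42 to 0.35, SE 0.18; edgeR adjusted p = 0.945) without mouse 3.

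Mouse 3 also held fat cell transcripts: Adipoq, Plin1, Lep, Retn and Cfd summed to 66.9 CPM there, against 0.38 to 11.3 CPM in the other 13 mice. Cfd alone gave 55.8 CPM of the sum in mouse 3 (110 counts). Adipoq had 9 counts in mouse 3 and at most 1 in any other mouse, and Retn had 12 there, while Plin1 was at 0 and Lep at 1. The whole list of 10 adipocyte genes, some of which liver also expresses, summed to 490 to 1442 CPM in Mif-2-/-Apoe-/- mice and 957 to 2168 CPM in Apoe-/- mice, and 0 of its 3 tested genes were called. In liver as a whole, fewer cells of a type and less RNA per cell cannot be told apart. In the plot of single mice, Pnpla2 stands beside the summed muscle genes and Lpin1 beside the ribosomal RNA share. How far muscle, fat or ribosomal RNA contributed to these values was not tested beyond leaving the mice out.

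**Figure D2:**
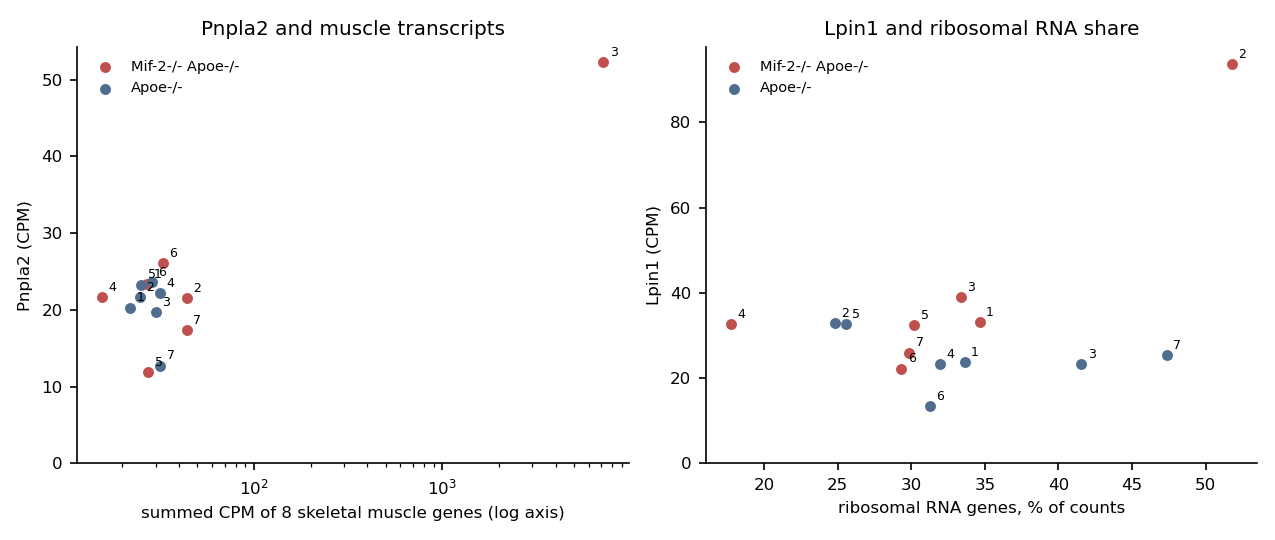
Left, Pnpla2 (CPM) against the summed CPM of 8 skeletal muscle genes on a log axis. Right, Lpin1 (CPM) against the percentage of counts in ribosomal RNA genes. Points are single mice with their numbers, Mif-2-/-Apoe-/- in red and Apoe-/- in blue. Mif-2-/-Apoe-/- mouse 3 (7189 CPM of muscle genes) stands apart on both axes of the left panel. Mouse 2 stands apart on the Lpin1 axis of the right panel, where its ribosomal RNA share (51.8%) is the highest but lies near that of Apoe-/- mouse 7 (47.4%).

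Pnpla3 (ENSMUSG00000041653.5, chromosome 15, 84167837 to 84187236, plus strand) follows feeding and SREBP-1c in mouse liver. It had 4 to 31 counts per Mif-2-/-Apoe-/- mouse and 1 to 17 per Apoe-/- mouse. As CPM, its lowest, median and highest levels were 2.17, 6.40 and 19.4 CPM in Mif-2-/-Apoe-/- mice, against 0.38, 3.18 and 8.30 CPM in Apoe-/- mice. Mif-2-/-Apoe-/- mice 3 and 5 lay above every Apoe-/- mouse, and the other 5 lay within the Apoe-/- range. The means were 8.02 ± 5.84 CPM in Mif-2-/-Apoe-/- mice and 4.04 ± 2.79 CPM in Apoe-/- mice, a log2 ratio of 0.99 (SD, n = 7 each; two-sided exact permutation p = 0.124). Without Mif-2-/-Apoe-/- mouse 5 the log2 ratio was 0.60 (exact permutation p = 0.245), and without mouse 7 it was 1.16 (exact permutation p = 0.0484). Pnpla3 shares its locus with the pseudogene Gm20369 on the opposite strand, which had 8 to 82 counts per mouse, more than Pnpla3 itself at its highest. It also overlaps Gm49513 on its own strand, which had 2 to 19 counts per Mif-2-/-Apoe-/- mouse and 1 to 13 per Apoe-/- mouse, and use of strand would not separate these 2 genes.

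Mgll (ENSMUSG00000033174.17, chromosome 6, 88724412 to 88828360, plus strand) releases the last fatty acid and also ends signalling by the endocannabinoid 2-arachidonoylglycerol. Its lowest, median and highest levels were 143, 160 and 239 CPM in Mif-2-/-Apoe-/- mice, against 196, 207 and 248 CPM in Apoe-/- mice. Of the Mif-2-/-Apoe-/- mice, 4 lay below every Apoe-/- mouse, at 143 to 160 CPM (mice 1, 4, 6 and 7), and 3 within the Apoe-/- range, at 209 to 239 CPM (mice 2, 3 and 5). Mgll had a log2 fold change of -0.25 (95% interval -0.55 to 0.06, SE 0.15; unadjusted p = 0.107, edgeR adjusted p = 0.468). Without Mif-2-/-Apoe-/- mouse 2 it was -0.32 (SE 0.14; unadjusted p = 0.0357, edgeR adjusted p = 0.222), and without mice 2 and 3 it was -0.38 (SE 0.15; unadjusted p = 0.0170, edgeR adjusted p = 0.129).

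**Figure D3:**
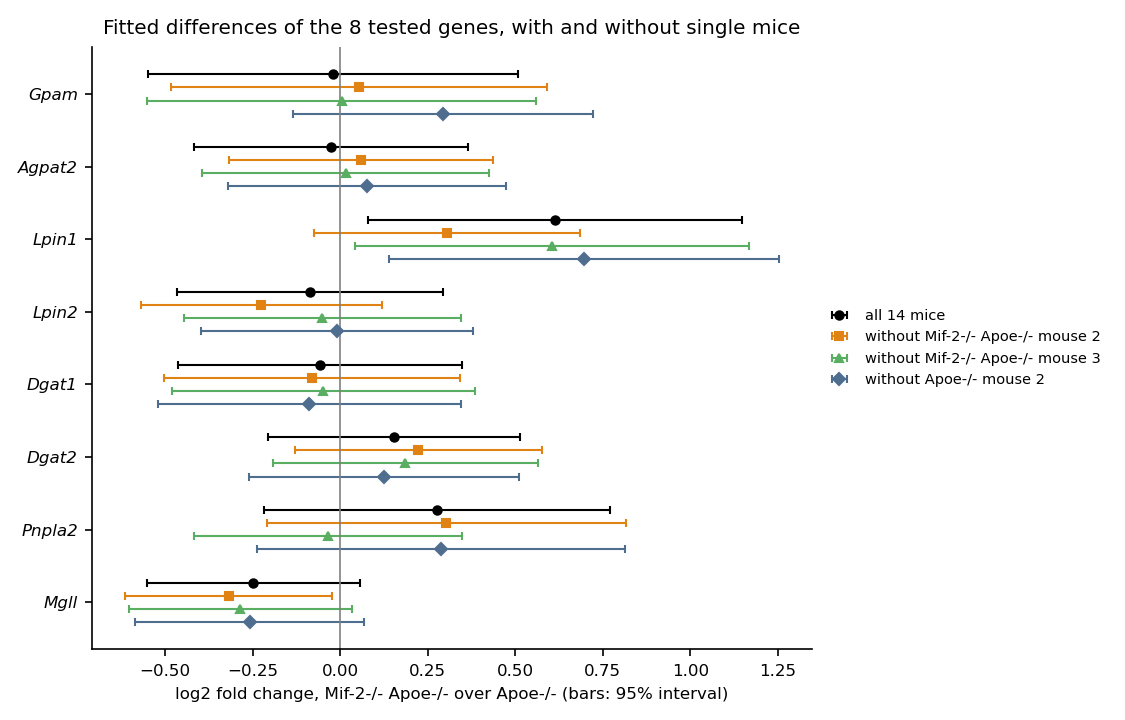
Fitted log2 fold changes (x axis, Mif-2-/-Apoe-/- over Apoe-/-) of the 8 tested enzyme genes with 95% intervals, from all 14 mice (black) and with 1 mouse left out: Mif-2-/-Apoe-/- mouse 2 (orange), Mif-2-/-Apoe-/- mouse 3 (green) or Apoe-/- mouse 2 (blue). Lpin1 moves to 0.30 without Mif-2-/-Apoe-/- mouse 2, Pnpla2 to -0.04 without mouse 3 and Gpam to 0.29 without Apoe-/- mouse 2.

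The same 4 Mif-2-/-Apoe-/- mice that were lowest for Mgll were highest for Dgat2. Over the 14 mice, centred within groups, Dgat2 had a Pearson r of -0.73 with Mgll and -0.78 with Mogat1, and Mgll had 0.69 with Mogat1. The strongest positive pair of the 10 genes was Lpin1 with Lpin2 at 0.70. These are descriptions over 14 mice that share library depth and scaling, and Mogat1 enters with 0 to 17 counts. Several of the enzymes also ran with or against a list of 12 handling and RNA quality transcripts, whose sum was 1380 to 6031 CPM in Mif-2-/-Apoe-/- mice and 2443 to 6922 CPM in Apoe-/- mice. Of that sum 89.6 to 98.4% came from 4 RNAs retained in the nucleus, Malat1 among them, and the rest from 8 immediate early genes. The nuclear RNAs had an r of -0.71 with Dgat2, 0.70 with Mogat1, -0.62 with Agpat2, 0.61 with Lpin1 and 0.53 with Mgll. Without Mif-2-/-Apoe-/- mouse 2 these values were -0.63, 0.57, -0.48, 0.30 and 0.31 over 13 mice. The immediate early genes had -0.32 with Dgat2, 0.15 with Mogat1 and 0.40 with Mgll over 14 mice. The part of these transcripts in the values of the enzymes was not tested.

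For each enzyme with at least 10 CPM, the 3 genes most like it were taken from the 4462 genes with at least 20 CPM, by Pearson r of log2 CPM centred within groups over 14 mice. Gpam was closest to Hmgcs1 (r = 0.94), to Acss2, which makes cytosolic acetyl-CoA from acetate (0.92), and to Acly, which makes it from citrate (0.87). Apoe-/- mouse 2 was the highest of the 14 mice for all of them, at 156, 63.8 and 94.4 CPM, and without it the r values were 0.91, 0.85 and 0.72 over 13 mice. In the same mouse a list of 12 fed-state genes, Fasn and Scd1 among them, summed to 7662 CPM, against 1865 to 4751 CPM in Mif-2-/-Apoe-/- mice and 1415 to 4508 CPM in the remaining Apoe-/- mice. Scd1 alone gave 5663 CPM of that sum. Fasn (497 CPM) was also highest in Apoe-/- mouse 2. Srebf1 (60.5 CPM) and Insig1 (93.7 CPM) were not, and reached 116.5 and 141.9 CPM in Mif-2-/-Apoe-/- mice.

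**Figure D4:**
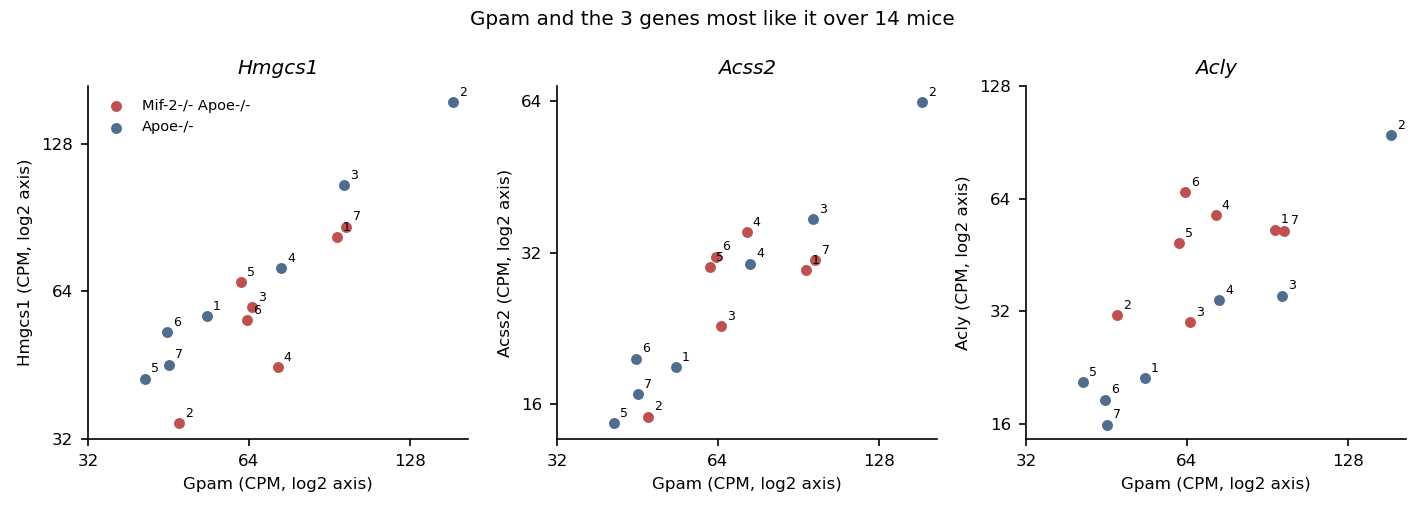
Hmgcs1, Acss2 and Acly (CPM, y axes) against Gpam (CPM, x axes), all on log2 axes, with 1 numbered point per mouse, Mif-2-/-Apoe-/- in red and Apoe-/- in blue. Apoe-/- mouse 2 lies at the top right of each panel, and among the other 13 mice r is 0.91 for Hmgcs1, 0.85 for Acss2 and 0.72 for Acly.

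Agpat2 was closest to Tmem176b (r = 0.95), the copper chaperone gene Atox1 (0.94) and the complement gene C1qc (0.94), which Kupffer cells express. The list of 13 macrophage markers summed to 649 to 1338 CPM in Mif-2-/-Apoe-/- mice and 753 to 1030 CPM in Apoe-/- mice, and 1 of its 12 tested genes was called, where the share over all genes was 0.217%. That gene was Timd4, a receptor of resident Kupffer cells, which was higher in Mif-2-/-Apoe-/- mice (log2 fold change 1.30, SE 0.27; edgeR adjusted p = 0.0373). At an unadjusted p below 0.05, 4 of the 12 were higher and 1 lower (Gpnmb, -0.89). The shares over all genes at that level were 7.37% higher and 5.49% lower. Other marker lists shifted too. Of 8 tested endothelial markers 3 were higher and 1 lower, and of 10 hepatocyte markers 3 were higher and 0 lower. Of 7 stellate markers 0 passed in either direction. Without Mif-2-/-Apoe-/- mice 2 and 3, 4 macrophage markers were higher and 1 lower at an adjusted p below 0.05. In that fit 3.72% of all genes were called. Agpat2 also ran against the ribosomal RNA share, with r = -0.80 over 14 mice and -0.73 without Mif-2-/-Apoe-/- mouse 2, a relation whose part in the level of Agpat2 was not tested. Lpin1 was closest to 2900026A02Rik (0.91), Hspa4 (0.84) and Acp2 (0.80), and Lpin2 to Ttc39c (0.86), Pgap2 (0.83) and the hepatocyte factor gene Onecut1 (0.82). Dgat1 was closest to Maob (0.85), Naa80 (0.79) and Glul, the glutamine synthetase of pericentral hepatocytes (0.79).

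Dgat2 was closest to Nono (0.92), Tmem256 (0.89) and Gulo, which makes vitamin C in mouse liver (0.88), and Mgll to Gnl3 (0.88), Cdk13 (0.87) and Taf3 (0.86), which encode nuclear proteins. Pnpla2 was closest to Idh2 (0.86), Vdac1 (0.84) and Retreg1 (0.83). Idh2 and Vdac1 encode mitochondrial proteins, and without Mif-2-/-Apoe-/- mouse 3 the 3 values were 0.63, 0.58 and 0.67 over 13 mice. For the other enzymes, leaving out the mouse that deviated most left each r at 0.72 or above.

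Genes around these enzymes in the pathway were read from the same fit, and none of the genes in 10 pathway and state lists was called at an adjusted p below 0.05. Beside each count stands the share of all genes with an unadjusted p below 0.05, which was 7.37% higher and 5.49% lower in Mif-2-/-Apoe-/- mice. Of 12 tested genes of substrate supply (glycerol phosphate, fatty acid activation and uptake), 0 were higher and 1 lower at that level, with a median of 0.03. That gene was Gpd1, which makes glycerol 3-phosphate, with 138 ± 21.9 CPM in Mif-2-/-Apoe-/- mice and 177 ± 37.1 CPM in Apoe-/- mice (log2 fold change -0.36, SE 0.16; edgeR adjusted p = 0.330). Acsl3 and Slc27a5, a fatty acid and a bile acid activating enzyme, had 0.48 and 0.27. Of 10 other synthesis genes, acyltransferase paralogs and lipid phosphatase genes, 1 was higher (Agpat5, 0.37) and 1 lower (the lipid phosphatase gene Plpp2, -0.83). Their median was -0.01, and Plpp3 had -0.27.

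Of 18 other hydrolases of glycerides, 0 were higher and 1 was lower at an unadjusted p below 0.05, with a median of -0.04. The lower one was Abhd6, another monoacylglycerol lipase (log2 fold change -0.45, SE 0.17; edgeR adjusted p = 0.253), and Aadac and Ces1g had 0.43 and -0.35. Of 9 lipolysis cofactors and lipid droplet genes, 0 were higher and 2 lower, with a median of -0.16 and 7 of 9 negative. Hsd17b13, a lipid droplet protein of hepatocytes, had 76.5 ± 12.3 CPM in Mif-2-/-Apoe-/- mice and 119 ± 25.1 CPM in Apoe-/- mice (log2 fold change -0.64, SE 0.16; edgeR adjusted p = 0.108; 7 of 7 Mif-2-/-Apoe-/- mice below the Apoe-/- mean). G0s2, the inhibitor of PNPLA2, had 36.5 ± 12.4 CPM in Mif-2-/-Apoe-/- mice and 59.7 ± 13.1 CPM in Apoe-/- mice (-0.69, SE 0.20; edgeR adjusted p = 0.146; 7 of 7 below). Fitm1, which partitions triglyceride into droplets, had -0.65 (SE 0.34; edgeR adjusted p = 0.411). The Fitm1 value hung on single mice. It was -1.03 without Mif-2-/-Apoe-/- mouse 3, the one with muscle transcripts (edgeR adjusted p = 0.155). Without Apoe-/- mouse 2 it was -0.37 (edgeR adjusted p = 0.610). Of 16 genes that lead diacylglycerol or phosphatidate into phospholipids, 0 were higher and 3 lower (Chpt1, -0.43; Cept1, -0.32; Dgkh, -0.71), with a median of -0.19.

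Of 23 regulators, 1 was higher and 4 were lower at an unadjusted p below 0.05, with a median of 0.01. Srebf1, which encodes the lipogenic factor SREBP-1, had 87.1 ± 30.2 CPM in Mif-2-/-Apoe-/- mice and 49.7 ± 14.5 CPM in Apoe-/- mice (log2 fold change 0.81, SE 0.23; edgeR adjusted p = 0.146). Pparg, whose product drives fat storage, had 14.4 ± 4.21 CPM in Mif-2-/-Apoe-/- mice and 23.3 ± 3.46 CPM in Apoe-/- mice (-0.68, SE 0.19; edgeR adjusted p = 0.143). Ppara, the regulator of fatty acid oxidation, had 117 ± 38.7 CPM in Mif-2-/-Apoe-/- mice and 189 ± 62.4 CPM in Apoe-/- mice (-0.69, SE 0.22; edgeR adjusted p = 0.188). For Pparg and Ppara all 7 Mif-2-/-Apoe-/- mice lay below the Apoe-/- mean, and for Srebf1 6 of 7 lay above it.

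Feeding state alters the transcripts of several of these enzymes in liver, so genes that report on feeding, time of day and handling were read as well. Of 12 fed-state genes, 3 were higher and 0 lower at an unadjusted p below 0.05 (Srebf1; Angptl8, 1.04; Insig1, 0.86), with a median of 0.21. Of 14 fasting genes, 4 were higher and 1 lower, with a median of 0.07. Igfbp1, which insulin represses, had 50.7 ± 18.1 CPM in Mif-2-/-Apoe-/- mice and 22.0 ± 10.1 CPM in Apoe-/- mice (log2 fold change 1.20, SE 0.26; edgeR adjusted p = 0.0537), Tat had 0.66 and the PPAR-alpha target Cyp4a10 had -0.70. Of 10 clock genes none passed in either direction, with a median of -0.01, and Nfil3, Nr1d1 and Clock had 0.63, -0.32 and -0.16. Of 9 handling and RNA quality genes 5 were higher and 0 lower, with a median of 0.73, led by the immediate early genes Fos (2.10, SE 0.45; edgeR adjusted p = 0.0504), Junb (0.99) and Egr1 (1.33).

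Without Mif-2-/-Apoe-/- mice 2 and 3, where 3.72% of all genes were called, some of the named pathway genes passed an adjusted p of 0.05. They were Srebf1 (1.06), Insig1 (1.15), Igfbp1 (1.25), Aadac (0.66), Fos (1.91) and Junb (1.16) on the higher side, and Pparg (-0.82), Ppara (-0.80), Fitm1 (-1.16) and Dgkh (-1.18) on the lower side, with edgeR adjusted p between 0.00483 and 0.0493. Hsd17b13 (-0.58) and G0s2 (-0.53) did not pass there, with edgeR adjusted p = 0.0504 and 0.0800. Over all 14 mice Hsd17b13 passed with DESeq2 (-0.61, DESeq2 adjusted p = 0.0129) and with DESeq2 after the study's gene filter (-0.61, DESeq2 adjusted p = 0.0143), and G0s2 passed with no filter on low counts (-0.65, edgeR adjusted p = 0.0490). In the other settings with all 14 mice, neither gene passed.

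**Figure D5:**
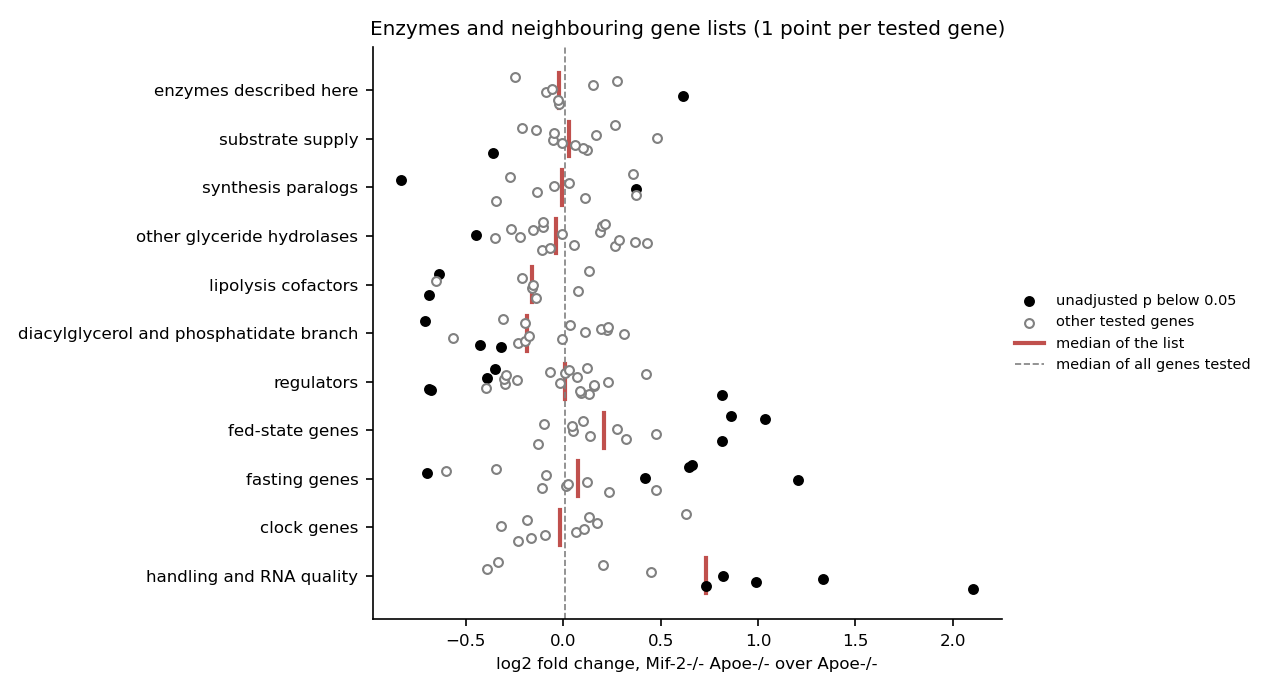
Fitted log2 fold changes (x axis, Mif-2-/-Apoe-/- over Apoe-/-) of every tested gene in the enzyme set and in 10 lists, 1 row per list and 1 point per gene, with the list median as a red bar and the median of all genes tested (0.01) as a dashed line. Filled points have an unadjusted p below 0.05. The row of synthesis paralogs also holds lipid phosphatase genes (Plpp). The enzymes cluster around 0 with Lpin1 (0.61) apart, while the handling list lies mostly to the right (median 0.73).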

How the data were processed

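Liver RNA was read by prime-seq, a method that tags the 3′ end of transcripts with a sample barcode and a unique molecular identifier. The authors made whole-number counts per gene with zUMIs on mm10 and deposited them without normalization, 1 table for each of 28 libraries. Counts are not divided by transcript length, so levels are compared within a gene only. Strand use, the counting of introns and the annotation release are not given in the sources used here. RNA integrity, a covariate in the study's model, is not among the labels and was left out of every fit here.

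The 2 libraries of each of the 14 mice were summed, since all 28 libraries correlated best with the other library of their mouse. Counts were filtered with filterByExpr of edgeR 4.0.16, scaled by TMM and tested by the quasi-likelihood F test (two-sided), with Benjamini-Hochberg adjustment over 9684 genes and a threshold of 0.05. The common biological coefficient of variation was 0.238. CPM use TMM-scaled library sizes except where total counts are named. The 95% intervals are per gene and unadjusted. Mogat1 and Pnpla3, removed by the filter, were compared by exact permutation of CPM over 3432 assignments, whose smallest p is 0.000583. Correlations used log2 CPM with a prior count of 2. p-values measure the spread between mice, which the labels number but do not tie to litters or cages.

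Alternatives were other scalings, no filter, DESeq2 1.42.0, single libraries, a replicate block and leaving out mice. Leaving out Mif-2-/-Apoe-/- mice 2 and 3 together was added after seeing the data. The enzymes and the gene lists were chosen with earlier results of these data known. Named genes are all 10 enzymes, Ddt, the 3 tested genes of smallest p in each list, the 3 genes most like each enzyme, and defining markers. Positions come from GENCODE M21 on mm10 and promoters from RefSeq GRCm38.p6; Dgat1 and Dgat2 promoters were not used here. The fit was tested on simulated data. Further versions were matplotlib 3.10.9, scipy 1.17.1, pandas 2.3.3, numpy 2.4.6, Python 3.11.15, limma 3.58.1 and R 4.3.3.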

Additional observations from a re-analysis of the deposited data

Results flagged for a closer look

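Among the 20 group-wise sets of 7 values of the 10 enzymes, 4 held a mouse whose gap to its nearest neighbour exceeded Dixon's 95% critical value as a share of the group's range, and chance gives about 1 in 20. Lpin1 was 93.7 CPM in Mif-2-/-Apoe-/- mouse 2, where the other 6 had 22.2 to 39.0 CPM. Pnpla2 was 52.2 CPM in Mif-2-/-Apoe-/- mouse 3, where the other 6 had 11.9 to 26.0 CPM, and 12.7 CPM in Apoe-/- mouse 7, where the other 6 had 19.7 to 23.6 CPM. Agpat2 was 151 CPM in Apoe-/- mouse 2, where the other 6 had 83.0 to 107 CPM.

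Among the named pathway genes a further 4 values stood apart. With the enzymes included, 8 of the 78 sets looked at were flagged, where chance gives about 1 in 20. Acsl3 was 22.1 CPM in Mif-2-/-Apoe-/- mouse 1, and Tat was 280.3 CPM in Mif-2-/-Apoe-/- mouse 4. G0s2 was 86.9 CPM in Apoe-/- mouse 2, and Junb was 34.6 CPM in Apoe-/- mouse 5.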

How the results depend on the processing

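Of the 8 tested enzymes 0 were called in the main fit and in every alternative run, except that Dgat1 got no adjusted p in the 2 DESeq2 runs and could not be called there, while the number of called genes over the whole table was less steady: 21 in the main fit, 344 with no filter on low counts, 113 with DESeq2, 106 with DESeq2 after the study's own gene filter, 11 in the first libraries alone, 376 without Mif-2-/-Apoe-/- mice 2 and 3, and 7 to 118 with 1 mouse left out (the highest without Mif-2-/-Apoe-/- mouse 2 and the lowest without its group mate mouse 6, with 9 on leaving out mouse 7 of that group, and 9, 8 and 8 for Apoe-/- mice 1, 3 and 4). With libraries scaled to their totals alone, 7 genes were higher and 14 lower in place of 13 and 8, and the median of all genes was -0.10. The cause of these shifts was not tested.

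Gpam and Agpat2, whose fold changes lay near 0, changed sign: with no filter they were 0.0141 and 0.0253, with DESeq2 0.0147 and 0.0132, with DESeq2 after the study's gene filter 0.0103 and 0.00738, in the first libraries 0.0699 and 0.0257, and without Mif-2-/-Apoe-/- mice 2 and 3 0.0989 and 0.125. Dgat1 was 0.0205 in the first libraries and Pnpla2 -0.0465 without both mice. With 1 mouse left out, the log2 fold changes ran from -0.126 to 0.294 for Gpam, -0.204 to 0.0766 for Agpat2, -0.225 to 0.00325 for Lpin2, -0.139 to 0.0659 for Dgat1 and -0.036 to 0.397 for Pnpla2, and from 0.304 to 0.714 for Lpin1, 0.0674 to 0.242 for Dgat2 and -0.319 to -0.194 for Mgll, which kept their sign. Unadjusted edgeR and DESeq2 p-values of Pnpla3 were 0.00124 with no filter, 0.0440 with DESeq2 and 0.0388 with DESeq2 after the study's gene filter, against an exact permutation p of 0.124. DESeq2 gave Mogat1 an unadjusted p of 0.00820 and no adjusted p.

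The replicate block called 14 genes and none of the enzymes, gave Gpam 0.117 and Lpin1 0.58, and changed no call of an enzyme. Mice of equal replicate number were not alike in expression: 2 of 7 pairs correlated above 0.1 (-0.42 to 0.17), and 1 of 14 mice was closest to its own number. Whether equal numbers share a litter or cage is not in the labels, and these values cannot tell.

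Of the named pathway genes none was called in the main fit and none changed sign in any alternative, and 15 passed in at least 1 alternative. Depth limits Mogat1, Pnpla3 and Dgat1 most, with at most 17, 31 and 44 counts per mouse.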
